A study of Mus musculus with 19 samples.

Results

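ER stress and unfolded protein response genes were followed in mouse liver as a set of 32 genes, named by symbol, of the 55836 genes listed for the series. They were chosen by function and divided by role into 14 chaperones and folding enzymes of the endoplasmic reticulum (ER), 8 genes of ER-associated degradation (ERAD), 4 sensors and transcription factors of the stress signal, and 6 genes of the ATF4/CHOP arm. Bulk RNA-seq libraries of 19 livers were compared, 1 library per mouse. All mice were male wild-type C57BL/6, 8 weeks old at the start and treated for 8 weeks, and all were gavaged every day. CD + Veh (n = 4) received a control diet with 10% of energy from fat, labelled Chow Diet, and the gavage vehicle, dilute Tween 20 in water. CD + PE (n = 5) received the same diet and polyethylene particles of 10 to 150 µm, labelled Microplastics, at 2 mg per mouse and day. MD + Veh (n = 5) and MD + PE (n = 5) received a MASH diet, made to induce metabolic dysfunction-associated steatohepatitis, with 40% of energy from fat, 20% of energy from fructose and 2% cholesterol, with vehicle or with the same PE dose. All 32 genes were found in the file, and all 32 passed the filter on low counts, as did 13597 genes in all.

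The unfolded protein response matches the folding capacity of the ER to the load of new secretory protein, a load that is large in hepatocytes, which secrete most plasma proteins. The membrane sensors IRE1 (Ern1), ATF6 and PERK (Eif2ak3) start it: IRE1 splices the mRNA of Xbp1, ATF6 is released by cleavage in the Golgi, and both then switch on chaperone and ERAD genes. PERK phosphorylates eIF2 alpha, which slows general translation and favours that of Atf4, and ATF4 in turn drives Ddit3, which encodes CHOP, and genes of amino acid supply and redox balance. Splicing of Xbp1, cleavage of ATF6 and translation of Atf4 are not read by gene counts, so that the values given here are mRNA levels.

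Library totals ran from 10398820 to 15456729 counts and were lower in the PE libraries (10398820 to 12757617) than in the vehicle libraries (13406037 to 15456729). Library numbers run through the vehicle libraries first and then the PE libraries, so the effect of PE and that of library order cannot be told apart. A division after library number 45, known from earlier results on these data, places MD + Veh replicates 4 and 5 with the PE libraries. Hepatocyte markers, all 10 of them detected in every group, summed to 80275 to 96846 CPM in CD + Veh, 73006 to 101743 in CD + PE, 56899 to 70864 in MD + Veh and 53604 to 70950.0 in MD + PE. MD + Veh replicate 1 held 3175 CPM of 10 skeletal muscle markers, and MD + PE replicate 2 held 256 CPM of 9 intestine markers and 175 CPM of 6 bile duct markers. These were the highest sums, and they were not the only raised ones. Skeletal muscle markers summed to 445 CPM in CD + PE replicate 1 and to 200 and 140 CPM in MD + Veh replicates 2 and 3. Bile duct markers summed to 107 CPM in MD + PE replicate 4. The clock score, the mean log2 CPM of clock activator genes minus that of clock output genes, ran from -4.71 to -3.62 in CD + Veh and from -3.24 to 0.484 in the other 3 groups. In bulk liver, fewer cells of a type and less RNA per cell cannot be told apart.

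The promoters are shown as a description of the members. Many chaperone and ERAD members moved together between mice, as described further on, and the part of promoter elements in this was not tested. The 250 bases before the canonical start of each gene were read from GRCm39 with the GENCODE vM39 annotation and searched on both strands for the ER stress response element (ERSE), which is CCAAT and CCACG with any 9 bases between them, a site of NF-Y and ATF6. A match stood in 25 of 21749 protein-coding promoters (0.115%) and in 9 of 32 members (28.1%). These were 7 of 14 chaperones (50.0%) and 2 of 8 ERAD genes (25.0%), against 0 of 4 sensors and 0 of 6 genes of the ATF4/CHOP arm. The members were chosen as known genes of this response, so a high share of them follows from the choice and is no finding. The short end of the element, CCACG, which every ERSE match also holds, stood in 30.4% of all promoters and in 21 of 32 members (65.6%). The matches are printed below in the direction of the gene with 5 bases on either side, the match in capitals.
Hspa5: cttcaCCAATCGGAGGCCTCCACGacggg
Hsp90b1, distal: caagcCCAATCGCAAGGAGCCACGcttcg
Hsp90b1, proximal: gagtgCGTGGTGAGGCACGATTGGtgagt
Calr: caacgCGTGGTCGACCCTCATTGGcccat
Canx: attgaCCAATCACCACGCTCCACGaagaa
Pdia6: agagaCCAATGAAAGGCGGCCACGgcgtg
Dnajc3: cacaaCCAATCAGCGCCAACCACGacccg
Creld2: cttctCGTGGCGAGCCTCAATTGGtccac
Syvn1: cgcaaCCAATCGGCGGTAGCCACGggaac
Derl3: tctacCGTGGGACTTCCCCATTGGctagc

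The windows of the plus-strand genes are Hspa5 chr2:34662032-34662060, Pdia6 chr12:17316487-17316515, Dnajc3 chr14:119175234-119175262, Creld2 chr15:88703718-88703746, Syvn1 chr19:6096557-6096585 and Derl3 chr10:75729071-75729099. Those of the minus-strand genes are Hsp90b1 chr10:86541497-86541525 and chr10:86541392-86541420, Calr chr8:85573699-85573727 and Canx chr11:50216622-50216650. In Calr, Creld2, Derl3 and the proximal site of Hsp90b1 the element reads in the reverse direction, starting with CGTGG. The first base of a match lay 37 to 162 bases before the start, and the windows of Hspa5 and Hsp90b1 overlap an annotated UTR of another transcript. A longer stretch is shown for Calr (chr8:85573668-85573867, minus strand) and Derl3 (chr10:75728988-75729187, plus strand), the member most abundant per length and the member with the largest fold change, neither of which overlaps an annotated UTR.
Calr: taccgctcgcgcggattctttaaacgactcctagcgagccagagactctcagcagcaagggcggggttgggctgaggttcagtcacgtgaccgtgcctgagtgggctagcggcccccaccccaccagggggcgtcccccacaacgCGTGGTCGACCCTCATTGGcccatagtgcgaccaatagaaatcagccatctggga
Derl3: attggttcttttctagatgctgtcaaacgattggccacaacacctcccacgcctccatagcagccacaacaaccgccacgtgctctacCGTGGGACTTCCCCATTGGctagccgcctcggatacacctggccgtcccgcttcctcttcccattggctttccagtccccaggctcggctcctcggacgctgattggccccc

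The 2 other elements searched are shown for the members that hold them. The unfolded protein response element TGACGTGG, a site of XBP1, stood in 0.561% of all promoters and in Hyou1 alone among the members (3.12%, chr9:44290653-44290670, plus strand). Read on the other strand it contains CCACG. The C/EBP-ATF response element TGATGNAA, a site of ATF4, stood in 3.39% of all promoters and in Chac1 (chr2:119181525-119181542, plus strand) and Herpud1 (chr8:95112940-95112957, plus strand), which is 6.25% of the members. In Chac1 and Herpud1 it reads in the reverse direction, and the windows of Hyou1 and Chac1 overlap an annotated UTR of another transcript.
Hyou1: aaccgTGACGTGGcccaa
Chac1: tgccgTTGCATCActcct
Herpud1: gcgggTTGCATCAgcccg

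MD + PE livers differed from CD + Veh livers in 9 of 32 members (28.1%), while 14.6% of all 13597 genes were called in that comparison. Called means an adjusted p below 0.05 in edgeR's quasi-likelihood test with Benjamini-Hochberg adjustment over all genes tested, and a log2 fold change of at least 0.38 in size. Higher in MD + PE were 7 members (21.9%, 6.02% of all genes): the chaperones and folding enzymes Calr, Pdia3, Pdia4, Dnajb11 and Sdf2l1, the ERAD gene Derl3, and Chac1 of the ATF4/CHOP arm. Lower were 2 members (6.25%, 8.55% of all genes), Derl2 and Atf4. By diet with vehicle, MD + Veh against CD + Veh, 2 members were called (6.25%, 10.4% of all genes), Atf4 and Ppp1r15a. Both were lower in MD + Veh (5.63% of all genes called lower, and 4.74% called higher). All CD + Veh libraries are numbered before all MD + Veh libraries, so diet and library order cannot be told apart in this comparison either. By diet under PE, MD + PE against CD + PE, Chac1 and Dnajc3 were called, both higher in MD + PE, which is 6.25% of the members beside 4.61% of all genes in either direction (1.69% higher, 2.92% lower).

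PE by itself gave 0 called members on either diet. On CD, 2.92% of all genes were called (1.22% higher, 1.7% lower), 5 members had an unadjusted p below 0.05 (17.5% of all genes), and DESeq2 called 0 members. On MD, 1.08% of all genes were called (0.147% higher, 0.934% lower), 7 members had an unadjusted p below 0.05 (15.7% of all genes), and DESeq2 called 0 members. In the interaction of PE and diet 0 members were called, beside 1 gene lower of all tested (0.00735%), 2 members had an unadjusted p below 0.05 (8.77% of all genes), and DESeq2 called 0. The comparisons share libraries, MD + PE vs CD + Veh combines diet and PE, and its groups lie on opposite sides of the library order.

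**Figure D1:**
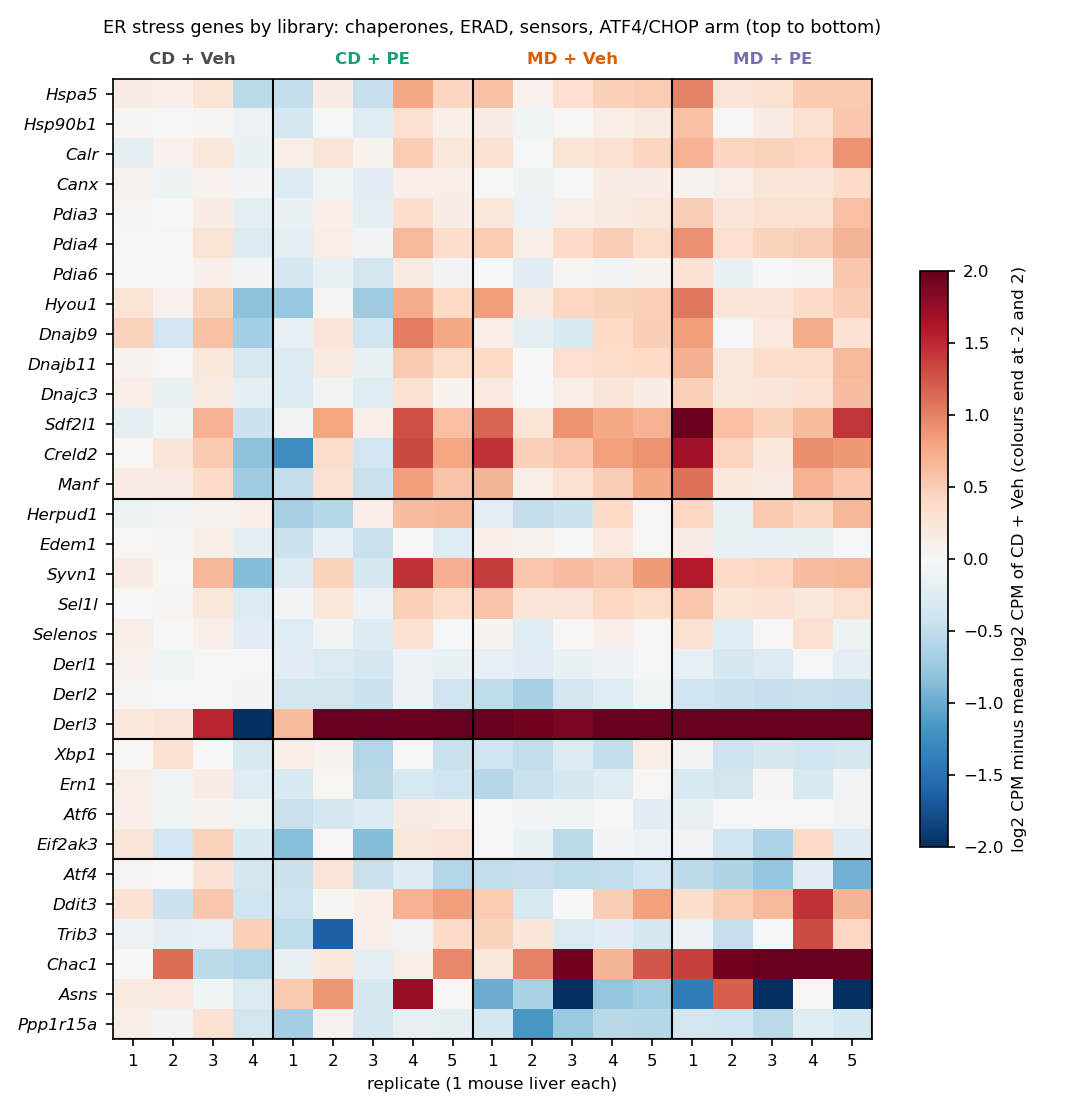
Each row is a member, ordered by role, and each column is 1 mouse liver. Colour gives the log2 CPM without a prior count minus the mean log2 CPM of CD + Veh. It ends at -2 and 2, which Derl3, with low counts in CD + Veh, exceeds in many libraries. With a prior count of 2, the mean of the chaperones was 0.23 to 0.85 in the 5 MD + PE livers and reached 0.63 in CD + PE replicate 4.

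Among the 14 chaperones and folding enzymes, all 14 had a positive log2 fold change in MD + PE vs CD + Veh (median 0.45), where 49.8% of all genes did. The test was passed by 5 of the 14. Calreticulin (Calr), which binds calcium and folds glycoproteins, was among the most abundant. Calr stood at 656, 787, 861 and 677 CPM in the 4 CD + Veh livers and at 806, 879, 775, 1048 and 871 CPM in the 5 CD + PE livers. Calr on MD stood at 917, 725, 895, 920.1 and 999 CPM with vehicle and at 1199, 996, 1016, 986 and 1374 CPM with PE. Every MD + PE liver was above every CD + Veh liver, while the ranges of the other groups overlapped with both. MD + PE was 1.49-fold above CD + Veh (log2 fold change 0.58, SE 0.12, adjusted p = 0.00211).

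ERp57 (Pdia3) is the disulfide isomerase that works with Calr and calnexin. Pdia3 stood at 397, 381, 425 and 333 CPM in the 4 CD + Veh livers and at 350.0, 411, 336, 486 and 422 CPM in the 5 CD + PE livers. Pdia3 on MD stood at 443, 353, 418, 435 and 449 CPM with vehicle and at 541, 454, 470.5, 473 and 580.1 CPM with PE. MD + PE lay above CD + Veh and also above MD + Veh with no overlap, and only CD + PE replicate 4 of the CD livers reached the MD + PE range. The difference from CD + Veh was 1.31-fold (log2 fold change 0.39, SE 0.11, adjusted p = 0.0162), and that from MD + Veh did not pass the test (log2 fold change 0.26, SE 0.10, adjusted p = 0.215).

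Pdia4, another disulfide isomerase, followed. Pdia4 stood at 192, 202, 239 and 162 CPM in the 4 CD + Veh livers and at 174, 216, 188, 309.7 and 252 CPM in the 5 CD + PE livers. Pdia4 on MD stood at 281, 216, 256, 276 and 254 CPM with vehicle and at 369.9, 249, 269, 279 and 315 CPM with PE. MD + PE and CD + Veh did not overlap, and CD + PE overlapped with both. The difference was 1.49-fold (log2 fold change 0.58, SE 0.15, adjusted p = 0.0119).

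Dnajb11 (ERdj3) is a co-chaperone of BiP. Dnajb11 stood at 95.1, 91.9, 105 and 72.1 CPM in the 4 CD + Veh livers and at 74.6, 103, 81.1, 129.8 and 116 CPM in the 5 CD + PE livers. Dnajb11 on MD stood at 119, 89.8, 113, 116 and 119 CPM with vehicle and at 147, 106, 115, 115 and 141 CPM with PE. The lowest MD + PE liver stood just above the highest CD + Veh liver (log2 fold change 0.45, SE 0.15, adjusted p = 0.0392). Sdf2l1, an ER protein that works with Dnajb11, was less abundant and more variable. Sdf2l1 stood at 18.1, 19.3, 33.1 and 15.2 CPM in the 4 CD + Veh livers and at 19.8, 35.4, 22.2, 50.2 and 31.1 CPM in the 5 CD + PE livers. Sdf2l1 on MD stood at 45.9, 24.7, 37.98, 35.0 and 33.3 CPM with vehicle and at 80.0, 31.0, 28.3, 31.9 and 55.2 CPM with PE. MD + PE replicates 1 and 5 were the highest, and the other MD + PE livers were below CD + Veh replicate 3 (log2 fold change 1.08, SE 0.32, adjusted p = 0.0237).

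Dnajc3 (p58IPK), a co-chaperone of BiP that also inhibits PERK, was higher in MD + PE than in CD + PE. Dnajc3 stood at 255, 211, 262 and 202 CPM in the 4 CD + Veh livers and at 189, 219, 196, 286 and 241 CPM in the 5 CD + PE livers. Dnajc3 on MD stood at 266, 225, 251, 272 and 256 CPM with vehicle and at 323, 269, 274, 281 and 355 CPM with PE. CD + PE replicate 4 overlapped with MD + PE, whereas all CD + Veh livers were below it. The difference from CD + PE was 1.33-fold and was called (log2 fold change 0.41, SE 0.11, adjusted p = 0.0311). Against CD + Veh the adjusted p passed and the fold limit did not (log2 fold change 0.37, SE 0.12, adjusted p = 0.0321), and DESeq2 called it.

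The 9 chaperones not called by edgeR in MD + PE vs CD + Veh include the best known of the set. BiP (Hspa5), the main Hsp70 of the ER, averaged 742 ± 167 CPM in the CD + Veh livers (SD, n = 4), 816 ± 308 CPM in CD + PE, 964 ± 127 CPM in MD + Veh and 1059 ± 228 CPM in MD + PE (SD, n = 5 each). Its livers ranged from 501 to 881 CPM in CD + Veh and from 523 to 1247 CPM in CD + PE, a 2.38-fold range within the latter group. GRP94 (Hsp90b1), the Hsp90 of the ER, had a log2 fold change of 0.34 in MD + PE vs CD + Veh with an adjusted p of 0.0637 by edgeR, and DESeq2 called it in MD + PE vs CD + PE. The values of calnexin (Canx), Pdia6, the BiP exchange factor Hyou1, the co-chaperone Dnajb9 and the secreted ER protein Manf were 0.21, 0.16, 0.44, 0.35 and 0.54 on the log2 scale. Creld2, an ER protein with isomerase activity, had the largest of these values, 0.84, with an SE of 0.40 and an adjusted p of 0.146 by edgeR.

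The chaperone signs were mixed with PE on CD, with 9 of 14 positive (median 0.14), where 51.1% of all genes were positive. In MD + Veh vs CD + Veh 13 of 14 were positive (median 0.27, 49.4% of all genes), in MD + PE vs MD + Veh 14 of 14 (median 0.20, 47.8% of all genes) and in MD + PE vs CD + PE 14 of 14 (median 0.35, 46.6% of all genes). The median over all genes tested was between -0.02 and 0.01 in each of these comparisons. The chaperones covary across libraries, so their signs are not independent of each other, and the called ones in these 4 comparisons came to 0, 0, 0 and 1.

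**Figure D2:**
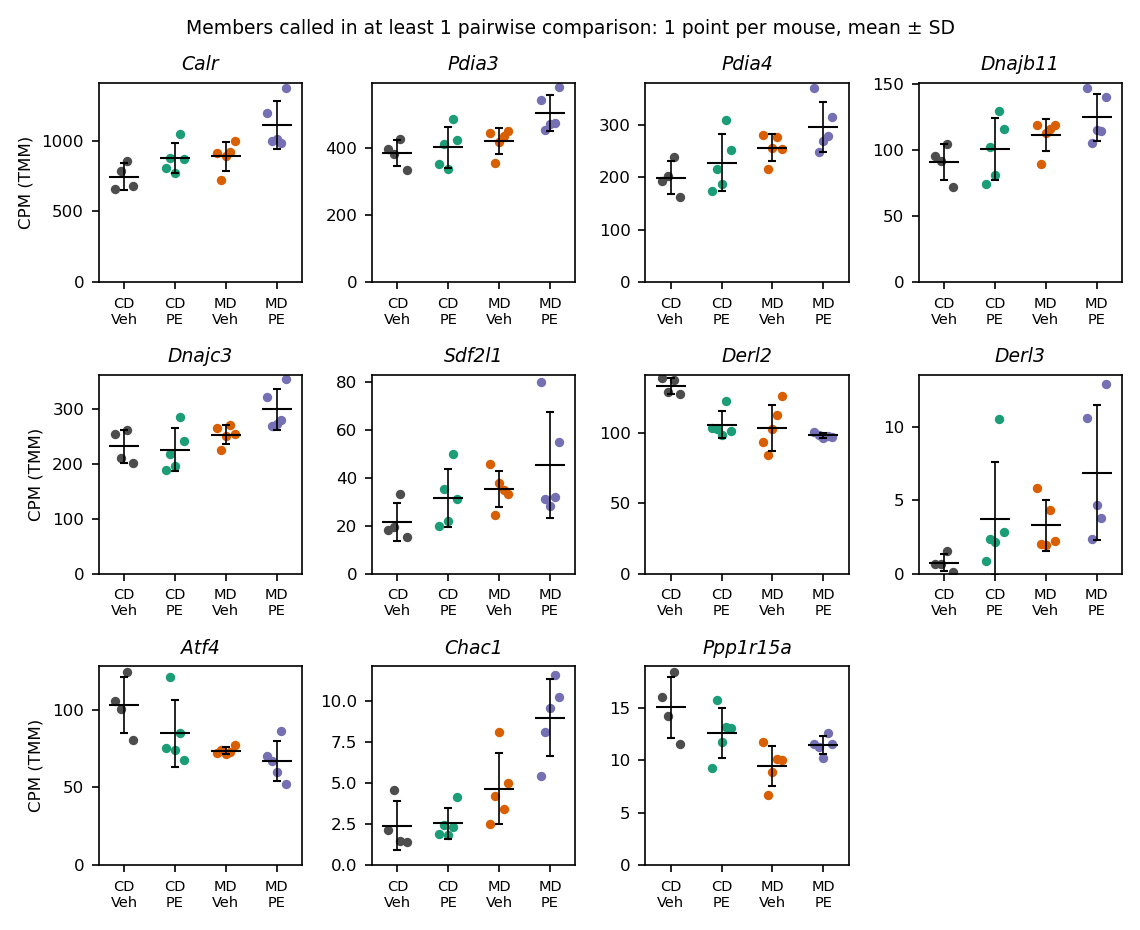
The 11 members called in at least 1 pairwise comparison, in CPM scaled by TMM on axes that start at 0, with 1 point per mouse and bars for the mean ± SD. The lower bar of Derl3 in CD + PE ends at the axis, since its SD of 3.87 CPM exceeds its mean of 3.75 CPM, and the Chac1 points of MD + PE lie between 5.44 and 11.6 CPM.

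Derl3 and Derl2, derlins that help to move misfolded proteins out of the ER, went in opposite directions among the 8 ERAD genes. Derl3 was the scarcest gene but for Asns per length of transcript, with 10, 9, 23 and 2 counts in the CD + Veh livers and 10, 27, 24, 105 and 29 counts in CD + PE. It had 92, 33, 29, 56 and 29 counts in MD + Veh and 131, 28, 54, 55 and 144 counts in MD + PE. All MD livers were above all CD + Veh livers, and CD + PE replicate 4 and MD + PE replicates 1 and 5 stood far above the rest of their groups. In CPM these values ran from 0.135 to 1.54 in CD + Veh, 0.830 to 10.5 in CD + PE, 1.98 to 5.83 in MD + Veh and 2.36 to 12.9 in MD + PE. MD + PE was 9.35-fold above CD + Veh by the means (log2 fold change 3.20, SE 0.73, adjusted p = 0.00382). The log2 fold changes of MD + Veh and CD + PE against CD + Veh were 2.14 (adjusted p = 0.0533) and 2.32 (adjusted p = 0.0832). Neither was called by edgeR, and DESeq2 called the first. Without CD + Veh replicate 3, the CD + Veh liver with the most Derl3 counts, the log2 fold change of MD + PE vs CD + Veh was 3.85, and over all 19 fits that leave out 1 library it ran from 2.85 to 3.85.

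Derl3 is also a gene of professional secretory cells, so markers of those were read beside it. The 8 plasma cell markers summed to 8.74, 7.56 and 4.13 CPM in the 3 livers with the most Derl3 counts, against 9.20 to 17.2 CPM in CD + Veh, and to 75.5 CPM in MD + PE replicate 2, where Derl3 was 2.36 CPM. The 12 exocrine pancreas markers summed to 21.1, 11.2 and 10.1 CPM in the same 3 livers, with 8, 10 and 10 of the 12 at 0, against 9.09 to 14.6 CPM in CD + Veh. CD + PE replicate 4 thus had the highest sum of pancreas markers of any liver. CD + PE replicates 1 and 2 came next with 19.4 and 17.4 CPM, with 8 and 1 of the 12 markers at 0. Their Derl3 was 0.830 and 2.37 CPM. The part of either marker list in Derl3 was not tested.

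Derl2 stood at 139, 129, 137 and 128 CPM in the 4 CD + Veh livers and at 104, 103, 98.8, 123 and 101 CPM in the 5 CD + PE livers. Derl2 on MD stood at 93.4, 84.1, 103, 113 and 126 CPM with vehicle and at 101, 98.5, 96.5, 98.3 and 97.2 CPM with PE. CD + Veh lay above all livers of the other 3 groups, which overlapped with each other. Derl2 was called lower in MD + PE vs CD + Veh (log2 fold change -0.44, SE 0.09, adjusted p = 0.00192). In MD + Veh and in CD + PE against CD + Veh the adjusted p passed and the fold limit did not (log2 fold change -0.36, adjusted p = 0.012, and -0.33, adjusted p = 0.0486). Derl1 had -0.19 on the log2 scale in MD + PE vs CD + Veh (adjusted p = 0.0485 by edgeR), also under the fold limit.

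The other ERAD members were not called in any comparison. Sel1l, the adaptor of the ubiquitin ligase Syvn1 (HRD1), ran from 121 to 168 CPM in CD + Veh and from 174 to 216 CPM in MD + Veh without overlap, and its log2 fold change of 0.37 (adjusted p = 0.0441 by edgeR) was just under the fold limit. Syvn1 itself ran from 41.7 to 121 CPM in CD + Veh and from 98.6 to 229 CPM in MD + PE, with a log2 fold change of 0.71 and an SE of 0.35. Herpud1, a scaffold of the same ligase complex and the most abundant ERAD member, had 0.40. Edem1, which hands misfolded glycoproteins to degradation, had -0.06, and Selenos, a selenoprotein of the complex, had 0.07, all on the log2 scale for MD + PE vs CD + Veh.

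Sensors and transcription factors of the stress signal gave 0 called members of 4 in every comparison. Xbp1 averaged 154 ± 27.4 CPM in CD + Veh and 123 ± 13.5 CPM in MD + PE (log2 fold change -0.32). Ern1 had -0.30 with PE on CD and -0.31 by diet, both with unadjusted p below 0.05 and adjusted p of 0.224 and 0.119 by edgeR. Atf6 and Eif2ak3 had -0.04 and -0.19 in MD + PE vs CD + Veh. The log2 fold changes of all 4 were below 0 in that comparison, in MD + Veh vs CD + Veh and in CD + PE vs CD + Veh, the opposite sign to most chaperones. These 3 comparisons share the CD + Veh libraries.

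Chac1, which breaks down glutathione and is a target of ATF4 and CHOP, changed most among the 6 genes of the ATF4/CHOP arm. Chac1 stood at 2.11, 4.58, 1.48 and 1.41 CPM in the 4 CD + Veh livers and at 1.91, 2.46, 1.85, 2.31 and 4.15 CPM in the 5 CD + PE livers. Chac1 on MD stood at 2.47, 4.21, 8.11, 3.41 and 5.02 CPM with vehicle and at 5.44, 8.08, 9.56, 11.6 and 10.2 CPM with PE. MD + PE was above both CD groups without overlap, and MD + Veh overlapped with all 3 other groups. Against CD + Veh the means differed 3.75-fold (log2 fold change 1.91, SE 0.37, adjusted p = 0.0012). Against CD + PE they differed 3.54-fold (log2 fold change 1.83, SE 0.35, adjusted p = 0.00308). With PE on MD the log2 fold change was 0.95 (adjusted p = 0.157) and with PE on CD 0.08 (adjusted p = 0.955), and the interaction of 0.87 had a 95% interval of -0.19 to 1.93.

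Atf4, the transcription factor that gives the arm its name, went the other way. Atf4 stood at 105, 101, 125 and 80.6 CPM in the 4 CD + Veh livers and at 75.6, 121, 74.3, 84.8 and 67.7 CPM in the 5 CD + PE livers. Atf4 on MD stood at 72.0, 74.1, 71.7, 72.5 and 77.2 CPM with vehicle and at 70.1, 67.0, 59.6, 86.5 and 52.1 CPM with PE. MD + Veh was below CD + Veh without overlap and varied little, while CD + PE replicates 2 and 4 and MD + PE replicate 4 stood within the CD + Veh range. Atf4 was lower in MD + Veh vs CD + Veh (log2 fold change -0.49, SE 0.16, adjusted p = 0.0437) and in MD + PE vs CD + Veh (log2 fold change -0.62, SE 0.16, adjusted p = 0.0084). The first of these calls held in 7 of 19 fits that leave out 1 library, with adjusted p up to 0.149 by edgeR, and in 6 of 11 other alternatives. The second held in 19 and in 10.

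Ppp1r15a (GADD34), which directs the dephosphorylation of eIF2 alpha, was lower by diet. Ppp1r15a stood at 16.0, 14.2, 18.4 and 11.5 CPM in the 4 CD + Veh livers and at 9.22, 15.7, 11.7, 13.2 and 13.0 CPM in the 5 CD + PE livers. Ppp1r15a on MD stood at 11.7, 6.63, 8.86, 10.1 and 9.96 CPM with vehicle and at 11.5, 11.3, 10.2, 12.6 and 11.6 CPM with PE. MD + Veh replicate 1 overlapped with CD + Veh replicate 4. The difference of MD + Veh from CD + Veh passed the test (log2 fold change -0.67, SE 0.16, adjusted p = 0.00782), and that of MD + PE from CD + Veh did not (log2 fold change -0.39, SE 0.16, adjusted p = 0.0881).

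CHOP (Ddit3), the pseudokinase Trib3 and asparagine synthetase (Asns) were not called. Ddit3 ran from 4.94 to 9.66 CPM in CD + Veh and from 8.45 to 18.1 CPM in MD + PE, that is 0.72 on the log2 scale (SE 0.29, adjusted p = 0.0865 by edgeR), and DESeq2 called it. Trib3 had 0.34 with an SE of 0.35. Asns, the scarcest member per length, stood at 1.75 to 2.44 CPM in CD + Veh and 0.341 to 1.36 CPM in MD + Veh without overlap, and its log2 fold change of -1.01 had an SE of 0.58 (adjusted p = 0.264 by edgeR).

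**Figure D3:**
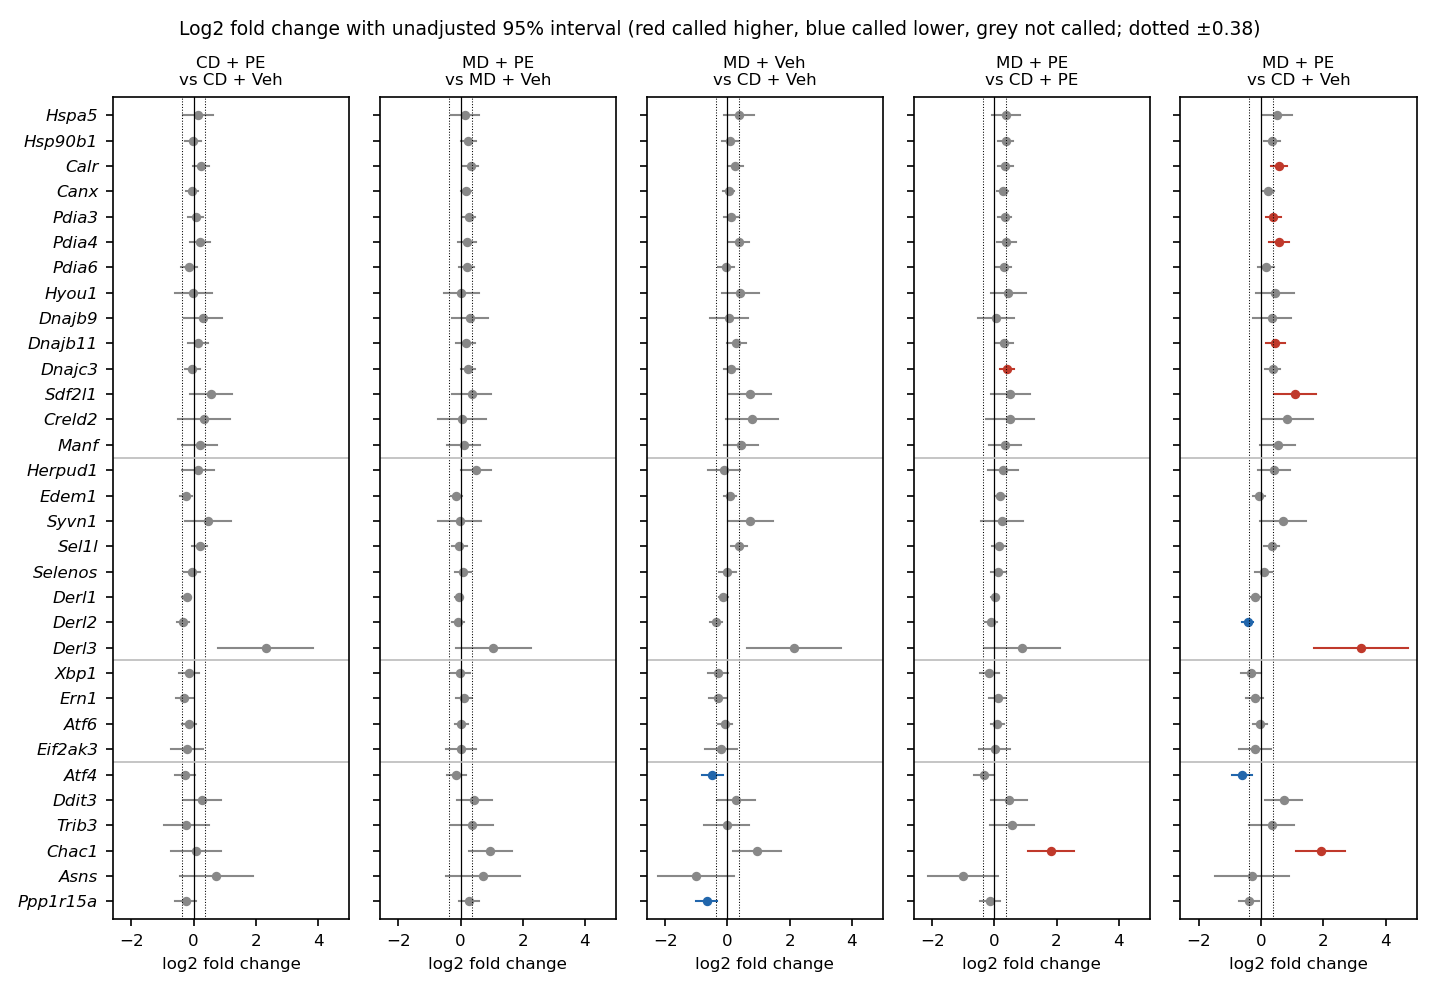
Log2 fold changes of the 32 members in the 5 pairwise comparisons, with unadjusted 95% intervals and dotted lines at -0.38 and 0.38. Red points were called higher and blue points lower; the panels of PE on CD and PE on MD hold grey points only, and the panel of MD + PE vs CD + Veh holds 7 red and 2 blue points.

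The intervals of the PE comparisons set what could be seen at these group sizes. For Hspa5 the log2 fold change was 0.14, with an SE of 0.23, and a 95% interval of -0.34 to 0.61 on CD, and 0.14, with an SE of 0.21, and a 95% interval of -0.31 to 0.59 on MD. For Calr it was 0.23 (-0.02 to 0.49) on CD and 0.32 (0.08 to 0.56) on MD, with adjusted p of 0.341 and 0.163 by edgeR. For Ddit3 it was 0.25 (-0.36 to 0.86) on CD and 0.44 (-0.13 to 1.00) on MD. The upper ends leave room for a rise beyond the limit of 0.38 in each of these genes on either diet. In the interaction, Ern1 (0.41) and Ppp1r15a (0.54) had unadjusted p below 0.05, with adjusted p of 0.527 and 0.504 by edgeR.

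Groups that did not overlap at all were counted as a second reading of the same values. In MD + PE vs CD + Veh, 8 members were higher in every MD + PE liver than in any CD + Veh liver (7.58% of all genes): Calr, Pdia3, Pdia4, Dnajb11, Dnajc3, Sel1l, Derl3 and Chac1. Derl2 alone was lower (11.3% of all genes). In MD + Veh vs CD + Veh, Sel1l and Derl3 were higher (7.37% of all genes) and Derl2, Atf4 and Asns lower (8.88%). With PE on CD, 0 were higher (3.49%) and Derl1 and Derl2 lower (4.35%). With PE on MD, Pdia3 was higher (1.08%) and 0 were lower (2.49%). In MD + PE vs CD + PE, Chac1 was higher (2.21%) and 0 were lower (3.96%). At an unadjusted p below 0.05 stood 18 members in MD + PE vs CD + Veh (33.1% of all genes), 11 in MD + Veh vs CD + Veh (28.6%) and 11 in MD + PE vs CD + PE (21.7%).

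Several calls of MD + PE vs CD + Veh were lost without 1 library or with a covariate. Without CD + Veh replicate 4, MD + PE replicate 1 or MD + PE replicate 5, 6 of the 9 calls were left, and Pdia3, Dnajb11 and Sdf2l1 were lost each time (Dnajb11 and Sdf2l1 also without CD + Veh replicate 1 or 2). Calr, Pdia4, Derl2, Derl3, Chac1 and Atf4 were called in all 19 fits that leave out 1 library. With the division after library 45 as a covariate, Chac1 and Derl2 were called and the other 7 were not, with adjusted p between 0.104 and 0.479 by edgeR. This fit draws the size of the division from the 5 MD + Veh livers only. With the clock score as a covariate, Calr, Derl3, Chac1 and Atf4 were called among the 9, and Derl2, Pdia3, Pdia4, Dnajb11 and Sdf2l1 were not, while Canx, Herpud1 and Ddit3 were added. The clock scores of CD + Veh do not overlap with those of any other group. In comparisons with CD + Veh, clock and group are therefore hard to separate, and a call lost in this fit does not show a part of the clock.

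In MD + PE vs CD + PE both groups lie on the same side of the division. All CD + PE libraries are numbered before all MD + PE libraries, so diet and library order cannot be told apart there. Chac1 was called in this comparison in all 19 fits that leave out 1 library and in all 11 other alternatives. Dnajc3 was lost without CD + PE replicate 1 or 3 or MD + PE replicate 1 or 5. Without CD + PE replicate 4, the CD + PE liver with the highest chaperone levels, 6 members were called in place of 2. Without MD + PE replicate 2, the liver with the highest sums of intestine and bile duct markers, 4 were. Hepatocyte markers were lower in the same comparisons, with 7 of 10 called lower in MD + PE vs CD + Veh, 3 in MD + Veh vs CD + Veh and 4 in MD + PE vs CD + PE. Of 8 Kupffer cell and macrophage markers 0 were called in these 3 comparisons. They summed to 141 to 238 CPM in CD + Veh, 283 to 405 CPM in MD + Veh and 222 to 378 CPM in MD + PE. In CD + PE they summed to 118 to 632 CPM, with the highest sum in replicate 2. The MD + Veh sums lay above those of CD + Veh without overlap. Of 7 stellate cell markers 3 were called higher in MD + PE vs CD + Veh, 1 in MD + Veh vs CD + Veh and 1 in MD + PE vs CD + PE. Of 6 sinusoidal endothelium markers 2 were higher in MD + PE vs CD + Veh, of 4 plasma cell markers tested 1 was higher and 1 lower there, and of 2 intestine markers tested 1 was higher in each of the 3 comparisons. Of 9 skeletal muscle markers tested 8 were higher in MD + Veh vs CD + Veh. The part of these marker differences in the members' values was not tested.

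Mice of the same group differed from each other in chaperone levels, and they differed in most chaperones at once. Deviations of log2 CPM from the group mean were correlated over the 19 libraries, as a description: the 91 chaperone pairs had a median Pearson's r of 0.838, from 0.373 to 0.981, and 89 of them were above 0.5. Hspa5 and Hyou1 had 0.981. Chaperone and ERAD pairs had a median of 0.677, chaperone and sensor pairs 0.431, chaperone and ATF4/CHOP pairs 0.172, and pairs within the ATF4/CHOP arm 0.0906. With the mean of the chaperones, from which a chaperone's own value was left out, Dnajb11 had 0.976, Hspa5 0.975 and Pdia4 0.968, while Calr had 0.746 and Canx 0.626. Of the ERAD genes, Syvn1 had 0.936, Sel1l 0.928, Edem1 0.885, Derl3 0.875 and Selenos 0.792, while Derl1 had 0.5805, Herpud1 0.557 and Derl2 0.496. Of the sensors, Eif2ak3 had 0.747, Atf6 0.553, Xbp1 0.350 and Ern1 0.2745. In the ATF4/CHOP arm, Ppp1r15a had 0.703, Ddit3 0.599 and Atf4 0.275, so that the arms overlapped. The lowest values were 0.107 for Asns, 0.0398 for Chac1 and -0.00188 for Trib3, all in the ATF4/CHOP arm.

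**Figure D4:**
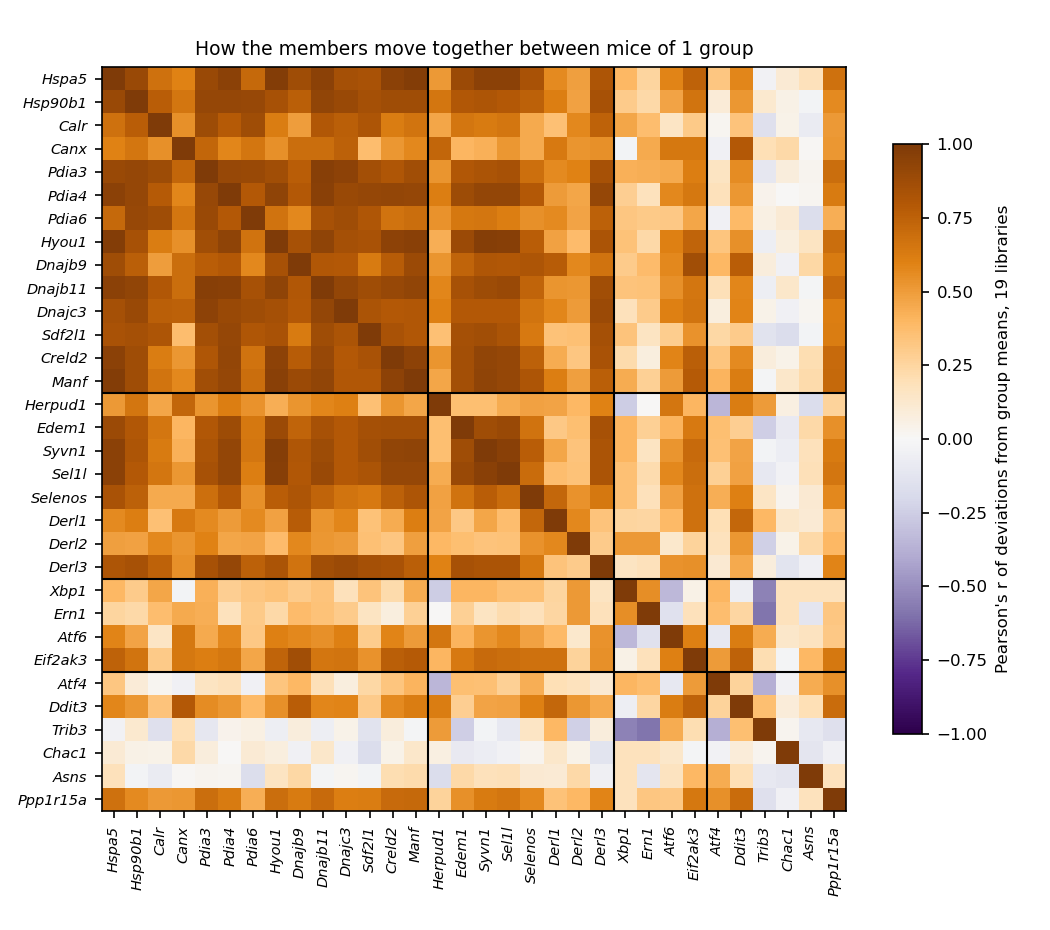
Pearson's r between members, computed on deviations from group means over 19 libraries, with members ordered by role and lines between the roles. The chaperone block and its columns with Edem1, Syvn1, Sel1l and Derl3 are dark brown, with a median of 0.838 within the chaperones, and the rows of Trib3, Chac1 and Asns are pale.

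The high and low livers can be named. In CD + PE, the mean deviation of the chaperones was 0.53 and 0.24 in replicates 4 and 5 and -0.45 and -0.37 in replicates 1 and 3. In CD + Veh it was -0.38 in replicate 4 and 0.30 in replicate 3, and in MD + PE 0.36 in replicate 1 and 0.16 in replicate 5. Relative to the CD + Veh mean, chaperones averaged -0.38 to 0.30 in CD + Veh, -0.35 to 0.63 in CD + PE, 0.03 to 0.47 in MD + Veh and 0.23 to 0.85 in MD + PE, in log2 units, so that CD + PE spanned most of the range of the study.

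Across libraries the mean deviation of the chaperones had a Pearson's r of 0.960 with that of the ERAD genes (Spearman's rho 0.979), and 0.940 without the 2 libraries farthest from the median. With the sensors it had 0.813 (rho 0.802, 0.768 without those 2), and with the ATF4/CHOP arm 0.416 (rho 0.437, 0.217 without those 2). With the clock score it had -0.109 and with the library total -0.312, each within groups. Members of a library share its depth and scaling, and a weak r over 19 libraries is no finding.

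**Figure D5:**
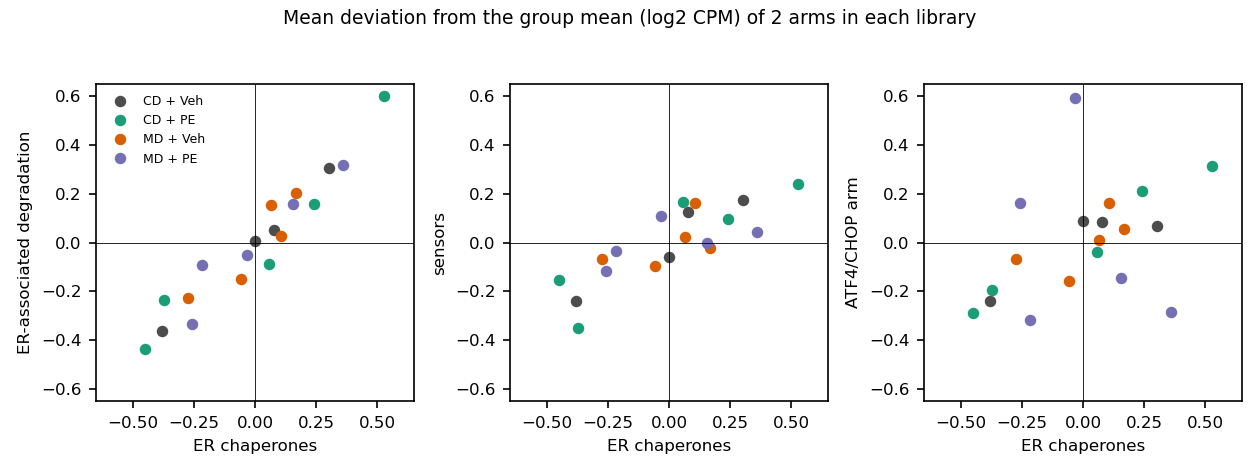
Mean deviation from the group mean in log2 CPM, for the chaperones on the horizontal axis and the ERAD genes, the sensors and the ATF4/CHOP arm on the vertical axes, 1 point per library. The ERAD points follow the chaperones closely (r = 0.960), the sensors less so (0.813), and the ATF4/CHOP points scatter (0.416).

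All 13597 genes that passed the filter were ranked by the same r with the chaperone mean, to name those whose pattern was most alike over the 19 libraries. Of the 50 closest, 14 were members and 5 were other genes of the pathway: Ero1b, the oxidase that re-oxidizes disulfide isomerases (0.965), Ubxn4 (0.908), the translocon subunit Sec61a1 (0.886), the folding sensor Uggt1 (0.875) and the signal peptidase subunit Spcs2 (0.863). The other 31 were in no list, among them the COPII coat genes Sec24d (0.909), Sec23b (0.844) and Sec31a (0.838), the ER calcium pump Atp2a2 (0.895), the oligosaccharyltransferase subunit Rpn1 (0.886) and Hspa13 (0.866). The last of the 50 had an r of 0.834.

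The other genes of the pathway were listed by function. In MD + PE vs CD + Veh, of 27 other folding genes 0 were higher and 5 lower, of 17 other degradation genes 2 were higher and 1 lower, of 16 other sensor genes tested 1 was higher and 2 lower, and of 30 other ATF4 targets tested 0 were higher and 1 lower. These are 18.5%, 17.6%, 18.8% and 3.33% of the lists, beside 14.6% of all genes. The median log2 fold change of the other folding genes was -0.12, against 0.45 in the 14 chaperone members and -0.00 over all genes. The transcription factor Creb3l1 stood at 1.63, 21.0, 1.22, 2.82 and 1.80 CPM in MD + PE and at 0.738 to 1.504 CPM in CD + Veh. Its log2 fold change of 2.21 (SE 0.70, adjusted p = 0.0311 by edgeR) was 0.62 (adjusted p = 0.289) without MD + PE replicate 2, the liver with the highest sums of intestine and bile duct markers. The call was also lost without any single CD + Veh liver. Lower were the disulfide isomerase Pdia5 (-0.76), mitochondrial Pck2 (-0.71), the eIF2 alpha phosphatase subunit Ppp1r15b (-0.48) and the glucosidase subunit Prkcsh (-0.48), and the mannosidase Edem3 was higher (0.47), with adjusted p of 0.00336, 0.0331, 0.000521, 2.71e-05 and 0.0106 by edgeR. Pck2 was called in 13 of 19 fits that leave out 1 library (lost without CD + Veh replicates 1, 2 or 4 or MD + PE replicates 2, 3 or 5), and the other 4 in all 19. With the clock score as a covariate Creb3l1, Pdia5, Pck2, Ppp1r15b and Prkcsh were not called, and with the library division Creb3l1, Pck2 and Edem3 were not. Prkcsh missed only the fold limit there (-0.377), and its adjusted p was at most 0.0104 by edgeR or DESeq2 over its 11 alternatives.

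By diet with vehicle, MD + Veh vs CD + Veh, 2 of 27 other folding genes, 0 of 17 degradation genes, 2 of 16 sensor genes and 2 of 30 ATF4 targets were called. These are 7.41%, 0%, 12.5% and 6.67%, beside 10.4% of all genes. Lower were Pdia5 (-0.68), the starch-binding protein gene Stbd1 (-0.67), the amino acid sensor kinase GCN2, Eif2ak4 (-0.53), Ppp1r15b (-0.52) and the prolyl isomerase Ppib (-0.38), and cystathionine gamma-lyase, Cth, was higher (0.54), all as log2 fold changes. Pdia5 and Ppp1r15b were called in all 19 fits that leave out 1 library, Eif2ak4 in 17 (lost without CD + Veh replicate 2 or 4), Cth in 13, Ppib in 12 and Stbd1 in 5. Cth was lost without CD + Veh replicate 1 or 4 or any of MD + Veh replicates 1 to 4, and Ppib without CD + Veh replicate 3, MD + Veh replicate 1, 2 or 4, CD + PE replicate 1 or 4 or MD + PE replicate 4. Stbd1 was still called without MD + Veh replicate 4, CD + PE replicate 1, 2 or 5 or MD + PE replicate 1. None of the 6 was called with the clock score as a covariate, a score that does not overlap between these 2 groups. In MD + PE vs CD + PE the folding gene Cnpy2 was lower (-0.39, adjusted p = 0.00458 by edgeR) and no other gene of these 4 lists was called. That call held in 11 of 19 fits that leave out 1 library, and its size was under the fold limit without CD + Veh replicate 1 or 4, MD + Veh replicate 1, CD + PE replicate 3, 4 or 5 or MD + PE replicate 1 or 2. With PE on CD, with PE on MD and in the interaction, 0 of these genes were called. At an unadjusted p below 0.05 stood 6 folding, 6 degradation and 4 sensor genes and 5 ATF4 targets with PE on CD, and 3, 3, 2 and 5 with PE on MD, beside 17.5% and 15.7% of all genes. In the interaction they were 1, 0, 3 and 5, beside 8.77% of all genes. With PE on CD 24 of the 27 other folding genes had a negative log2 fold change (median -0.14), where 51.1% of all genes had a positive one. The signs of the chaperone members were mixed there, with 9 of 14 positive. Signs of genes that covary across libraries are not independent, and how far the other folding genes covary as a list was not tested.

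Levels of different genes were compared per length of the canonical transcript in CD + Veh. Calr had 326 CPM per kb, Hsp90b1 291, Hspa5 149.9, Herpud1 146 and Pdia3 104, on the scale of the mean level. Xbp1 had 78.3 and Atf4 59.1, whereas the sensors Ern1 and Eif2ak3 had 11.5 and 5.52. Ddit3 had 6.41, Trib3 2.93 and Chac1 1.44, and Derl3 and Asns were lowest with 0.554 and 0.440, so that the members with the largest fold changes, Derl3 and Chac1, were among the 3 scarcest.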

How the data were processed

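Liver RNA of 19 mice was sequenced by the authors from poly(A)-selected, paired-end libraries (1 per mouse). Per the labels and the study's methods, reads were trimmed with fastp 0.23.4 and quantified with Salmon 1.10.3 against GENCODE transcripts of GRCm39, and summed per gene with tximport. The GENCODE release and the rounding are not given in the sources used here. The deposited values are estimated counts per gene, held as whole numbers and not normalized, for 55836 genes, of which 13597 passed edgeR's filterByExpr. Salmon divides reads among similar transcripts by estimate, so genes with near-identical copies are less certain. In none of the 36 pairs of libraries of the same group did more than 1.85% of genes have identical counts, so none looked like a library deposited again.

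Groups were taken from the labels. The quasi-likelihood F test of edgeR 4.0.16 (R 4.3.3, TMM scaling, 1 coefficient per group, all 19 libraries) gave the 5 pairwise comparisons and the interaction of PE and diet, with Benjamini-Hochberg adjustment over all genes tested, an adjusted p limit of 0.05 and a log2 fold change limit of 0.38, both limits from the study's methods. CPM are counts scaled to TMM-adjusted library sizes, and log2 CPM used a prior count of 2, except in the colours of the heat map. SE was derived from the log2 fold change and its F value, and 95% intervals are not adjusted. The p-values set the difference between groups against the spread between mice within groups, estimated over all groups together. Members that were called in at least 1 pairwise comparison are given in every library, the others by range, and at most 6 other pathway genes per comparison by size of change. The members, the lists and the tests were chosen with earlier results of these data known. Alternatives were DESeq2 1.42.0, RLE scaling, filters, thinning to the smallest library, the library division, a replicate block and leaving out each library. Leaving out MD + Veh replicate 1 and MD + PE replicate 2, and the clock score as a covariate, were added after seeing the data. Other livers with raised foreign marker genes were kept in the first of these fits. Steps were tested on simulated data. Replicate numbers gave no clear sign of pairing: 27 same-number pairs had a median r of 0.0293 and 6 were over 0.1. The 108 pairs of other numbers had a median r of -0.00991 and 27 were over 0.1. These values cannot exclude a shared litter, cage or day. Promoters were read from GRCm39 with GENCODE vM39.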

Additional observations from a re-analysis of the deposited data

Results flagged for a closer look

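In each of 128 groups of values, 1 for every member in every experimental group, the highest or lowest liver was compared with its nearest neighbour relative to the whole range of the group (Dixon's criterion), and 9 stood apart, where chance gives about 1 in 20. Of these, 3 were MD + PE replicate 1, the liver with the highest chaperone levels of its group: Syvn1 at 229 CPM (nearest 119.8), Sel1l at 215 CPM (nearest 182) and Xbp1 at 147 CPM (nearest 120.4). In MD + Veh replicate 2, Dnajb11 was low at 89.8 CPM (nearest 113) and Selenos at 51.6 CPM (nearest 61.8). In MD + Veh replicate 3, Eif2ak3 was low at 16.9 CPM (nearest 22.2) and Asns at 0.341 CPM (nearest 1.08). Derl2 was high in CD + PE replicate 4 at 123 CPM (nearest 104), and Trib3 was high in CD + Veh replicate 4 at 8.35 CPM (nearest 5.53).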

How the results depend on the processing

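The 9 members called in MD + PE vs CD + Veh became 2 (Chac1 and Derl2) with the library division as a covariate, and between 7 and 11 under the other alternatives except the replicate block, where 6 were left without Dnajb11, Pdia3 and Sdf2l1. With the clock score as a covariate 7 were called, of which 4 were among the 9. The 2 members of MD + Veh vs CD + Veh became 1 with no filter on low counts (Ppp1r15a), 1 with MD + Veh replicate 1 and MD + PE replicate 2 left out (Ppp1r15a), 1 with the clock score (Atf4) and 4 with no minimum fold change. Atf4 was also lost there with the library division, with thinning to the smallest library and with the replicate block. The 2 of MD + PE vs CD + PE became 1 in a fit of the 2 groups alone (Chac1) and 4 with MD + Veh replicate 1 and MD + PE replicate 2 left out. The 0 of CD + PE vs CD + Veh became 1 (Derl2) with no minimum fold change and 1 (Derl2) with the library division. The causes were not tested. The replicate block, in which samples share only a number, left 2 members in MD + Veh vs CD + Veh (Derl2 and Ppp1r15a), 2 in MD + PE vs CD + PE and 0 in the others. Leaving out 1 library at a time gave 1 to 3 members in MD + Veh vs CD + Veh, 1 to 6 in MD + PE vs CD + PE and 6 to 11 in MD + PE vs CD + Veh, and 0 to 0 in the PE comparisons and the interaction. Of the calls for members, none changed its sign under an alternative, and members that were not called were not followed. Stbd1, an ATF4 target called lower in MD + Veh vs CD + Veh, had 0.073 on the log2 scale with the clock score (adjusted p = 0.917); over its alternatives the adjusted p began at 0.00713. Counts of Derl3, 2 to 23 in CD + Veh, limit the precision of its fold change, as do the counts of Chac1 and Asns.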
